A study of Mus musculus with 10 samples.

Results

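The PGC-1 coactivators, the receptors and factors they work with and the corepressor Nrip1 were followed in the fasted calf muscle of Skn-1 knockout animals and their wild-type counterparts. The members were 10 genes listed by name as regulators of mitochondrial biogenesis: Ppargc1a, Ppargc1b, Perm1, Esrra, Esrrb, Esrrg, Nrf1, Gabpa, Tfam and Nrip1, out of 18193 named genes. All probe sets that the platform annotation ties to 1 of these genes alone were taken, which gave 30 of the 45037 probe sets on the array. The list was chosen by the Ppargc1a values of these same arrays, already known to be high in some knockouts. The genotype differences of its members and their correlations with Ppargc1a are therefore described here and carry no independent test.

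Gene expression had been measured with Affymetrix mouse arrays in the gastrocnemius of 5 Skn-1/Pou2f3-deficient mice and 5 wild-type mice, 1 array per biological replicate. Pou2f3, the gene also called Skn-1, encodes a POU-domain factor on which taste and tuft cells depend. All animals were male, 12 to 16 weeks old, fed chow and then fasted for 18 h. The labels give a mixed 129 x C57BL/6J strain background for both genotypes, and the protocol adds that the deficient line was crossed back to C57BL/6J for over 10 generations. The extent of the deletion is not stated, and the only Pou2f3 probe set was flat, at 6.47 on every array of both genotypes, so it does not check the labels. Values are on a scale taken as log2, differences are knockout minus wild type, and n is 5 arrays per genotype throughout; whether an array pooled animals is not stated.

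PGC-1 coactivators bind no DNA themselves. They dock on nuclear receptors such as the estrogen-related receptors and on nuclear respiratory factors, and switch on genes of respiration and fat oxidation. In muscle, Ppargc1a is known to respond to exercise, cold and fasting through cAMP, calcium and AMPK signals, whereas Nrip1 represses many of the same target genes.

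Arrays differed in markers of tissue other than muscle. The 10 muscle markers stood between 11.83 and 13.96 on average over all arrays, and their summed linear level was 111869 to 114201 in knockouts and 111604 to 114777 in wild types. The summed level of 13 measured epidermis and hair markers was 2542 in knockout 1 and 3149 in knockout 4, against 2907 in wild type 1 and 2169 in wild type 3, and 890 to 935 in the other arrays. The 11 measured lymphocyte markers summed to 2779 in knockout 5 and 2854 in wild type 3, and to 780 to 892 elsewhere. Adipocyte markers summed to 7750 in knockout 4 and 8385 in knockout 5, the highest knockouts, and to 5255 to 6570 in the other knockouts, against 4886 to 9823 in wild types. Of 9 slow-fibre markers 2 were higher and 7 lower in knockouts, with sums of 7219 to 9211 in knockouts and 8295 to 10827 in wild types. The mean log2 deviation of a list's varying markers correlated with Ppargc1a 1460336_at past the threshold for no list over the 10 arrays; the farthest from 0 was endothelium (r = −0.51, permutation p = 0.132, adjusted p = 0.668 over 8 lists; rho = −0.60). Values for members are also given without the arrays high in epidermis and hair or lymphocyte markers, a choice made after seeing the data. In whole muscle, fewer cells of a type and less RNA per cell cannot be told apart.

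The member probe sets were of 2 kinds. Over the 10 arrays, 11 of the 30 had an SD from 0.180 to 0.759 and are called varying, and the other 19 had an SD of at most 0.000519 and are called flat. The dividing SD was 0.01, and no member lay near it. Over the whole array 86.2% of probe sets were of the second kind, and their genotype differences are too compressed to be read as folds. The varying probe sets belonged to Ppargc1a (5 of 5), Ppargc1b (1 of 1), Perm1 (1 of 2), Esrrg (1 of 3) and Nrip1 (3 of 6). Esrra, Esrrb, Nrf1, Gabpa and Tfam had none, so that 5 of the 10 genes could not be followed from array to array.

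**Figure D1:**
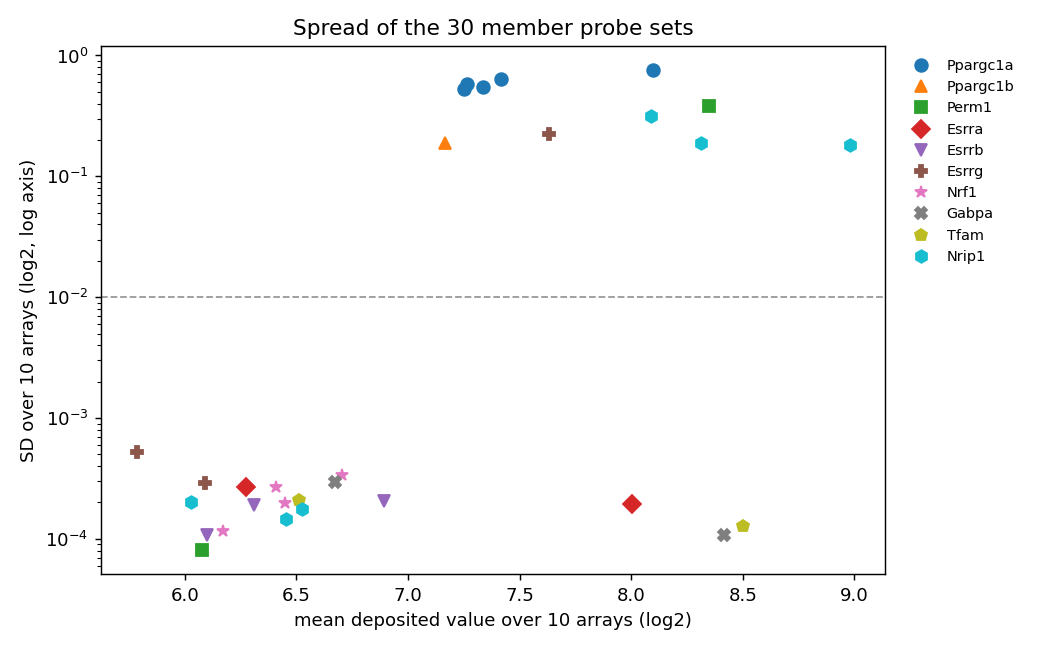
Each point is 1 of the 30 member probe sets, with its mean deposited value over the 10 arrays on the x axis (log2) and its SD over the arrays on the y axis (log2 units, log axis). The dashed line marks an SD of 0.01. The 11 points above it, at 0.180 or more, are those of Ppargc1a, Ppargc1b, Perm1, Esrrg and Nrip1, and the 19 below it lie at 0.000519 or less.

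The DNA before the gene starts was searched for motifs that factors of this pathway are known to bind. RefSeq promoter windows of the GRCm38.p6 build were held for 9 of the 10 members, 15 windows in all, and the 250 bases before each start were searched on both strands. The windows of 4 genes are shown because they held a motif of the pathway (Esrrb, not shown, held the TGACG letters described next at 158 and 117 bases before its start), written 5′ to 3′ on the gene's strand with the motif in capitals. They lie at chr5:51567726-51567975 (minus strand, Ppargc1a), chr4:156215677-156215926 (plus strand, Perm1), chr10:71238045-71238294 (minus strand, Tfam) and chr16:84834874-84835123 (plus strand, Gabpa).
Ppargc1a: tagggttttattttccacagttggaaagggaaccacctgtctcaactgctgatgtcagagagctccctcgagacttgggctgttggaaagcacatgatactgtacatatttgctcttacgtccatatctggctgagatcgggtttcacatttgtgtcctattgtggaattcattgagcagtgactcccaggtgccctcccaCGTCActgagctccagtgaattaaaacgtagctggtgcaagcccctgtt
Perm1: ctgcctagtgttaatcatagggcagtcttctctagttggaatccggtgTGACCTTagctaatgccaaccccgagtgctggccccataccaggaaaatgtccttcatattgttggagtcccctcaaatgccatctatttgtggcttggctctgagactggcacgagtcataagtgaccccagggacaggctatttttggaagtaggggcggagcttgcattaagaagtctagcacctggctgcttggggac
Tfam: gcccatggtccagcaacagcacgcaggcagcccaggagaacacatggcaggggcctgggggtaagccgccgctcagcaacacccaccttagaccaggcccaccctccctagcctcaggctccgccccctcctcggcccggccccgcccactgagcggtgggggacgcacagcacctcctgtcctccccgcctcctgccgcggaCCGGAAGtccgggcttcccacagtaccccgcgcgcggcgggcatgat
Gabpa: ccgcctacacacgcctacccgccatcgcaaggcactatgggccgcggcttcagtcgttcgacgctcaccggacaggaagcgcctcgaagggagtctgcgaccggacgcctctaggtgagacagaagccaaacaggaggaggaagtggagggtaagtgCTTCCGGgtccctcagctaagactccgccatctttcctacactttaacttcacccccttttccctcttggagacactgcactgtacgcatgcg

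In the Ppargc1a window the capitals mark the cAMP response core TGACG, read on the opposite strand, 49 to 45 bases before the start. These letters occurred in 17.8% of all 32851 windows. The full element TGACGTCA, which 1.55% of windows held, was in none of the members' windows. In the Perm1 window the capitals mark the receptor core AAGGTCA on the opposite strand, 202 to 196 bases before the start, which 4.08% of windows held. The longer ERR element TCAAGGTCA (0.387% of windows) and the NRF1 motif GCGCATGCG (1.45%) were found in none of the members' windows. The ETS motif CCGGAAG, the kind of site that Gabpa binds, stood 47 to 41 bases before the Tfam start and, on the opposite strand, 93 to 87 bases before the start of Gabpa itself. It was present in 6.91% of all windows. The 2 short cores were added to the search after the windows had been read, each lies inside its longer element, and a match of letters is a description of the sequence.

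Ppargc1a, the coactivator that drives mitochondrial biogenesis, was higher than in any wild type in 4 of 5 knockouts by 3 of its 5 probe sets, and in 3 of 5 knockouts by the other 2. Its brightest probe set, 1460336_at, read 7.61, 8.22, 8.53, 9.78 and 8.82 in knockouts 1 to 5. In wild types 1 to 5 it read 7.56, 7.53, 7.84, 7.75 and 7.32. Knockout 1 lay among the wild types, so the groups overlapped, while knockout 4 stood at 4.52 times the wild-type mean on the linear scale and knockout 5 at 2.33 times. The mean was 8.59 ± 0.801 in knockouts and 7.60 ± 0.203 in wild types (SD, n = 5 each). The knockouts thus spread far more widely than the wild types. The difference was 0.99 ± 0.36 (SE of the fit), or 1.99 times the wild-type level. Without knockout 4 it was 0.69, and without knockout 1 it was 1.24. Without the 4 arrays with epidermis and hair markers, which include both knockout 4 and knockout 1, it was again 0.99, with 3 arrays of each genotype left. It was also 0.99 without the 2 arrays with lymphocyte markers, and 0.84 without the 5 arrays with either.

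In the other 4 probe sets of Ppargc1a, too, knockouts 3, 4 and 5 were the highest arrays. Probe set 1456395_at read 7.02, 7.48, 7.87, 8.93 and 7.83 in knockouts 1 to 5, against 6.98, 7.03, 7.11, 7.05 and 6.87 in wild types 1 to 5. Its wild types lay close together, and 4 of the 5 knockouts were above all of them. Differences of the other 3 ran from 0.60 to 0.69. Knockout 4 was the highest of the 10 arrays in each of the 5 probe sets, and wild type 5 was the lowest in 4 of them. Among the 10 pairs of these probe sets the correlation over arrays ran from 0.95 to 0.99, and after subtracting each genotype's mean from 0.93 to 0.99. The spread between knockout arrays was thus seen by all 5 probe sets. In 1434100_x_at wild type 3 stood apart from the other wild types, at 7.37 against 6.86 to 6.98.

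**Figure D2:**
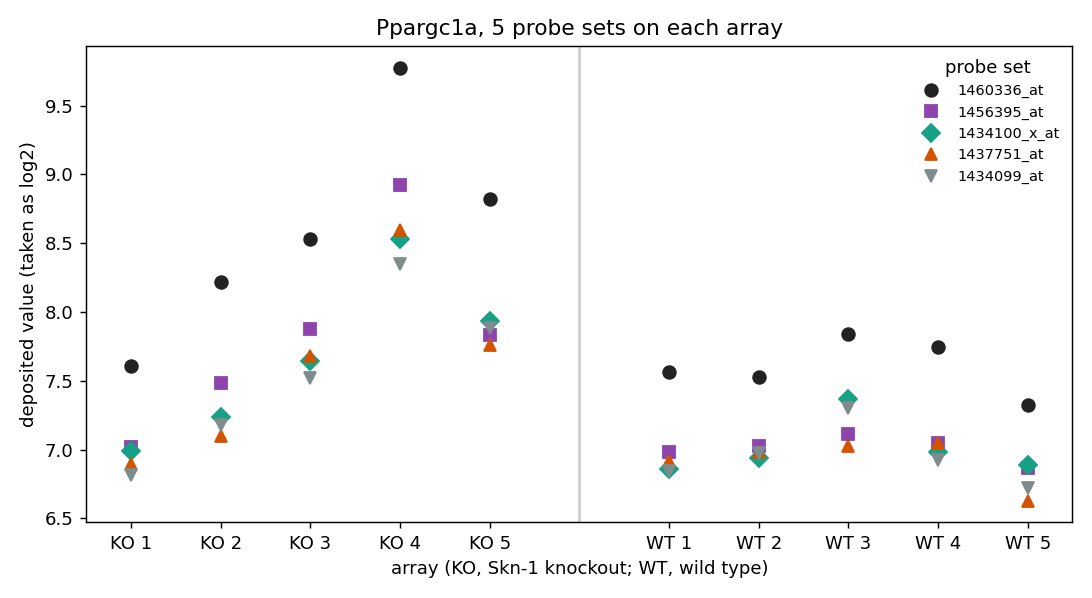
The 5 Ppargc1a probe sets are plotted for each array, knockouts 1 to 5 on the left and wild types 1 to 5 on the right, with the deposited value (log2) on the y axis and a symbol for each probe set. In every probe set knockout 4 is the highest array, and knockout 1 lies at the level of the wild types.

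Ppargc1b, the second coactivator of the family, did not follow Ppargc1a between genotypes. Its probe set 1449945_at read 7.03, 7.03, 6.98, 7.33 and 7.24 in knockouts 1 to 5, against 7.53, 7.13, 7.35, 7.08 and 6.97 in wild types 1 to 5. The highest value was that of wild type 1 and the lowest that of wild type 5, so the wild types covered the range of the knockouts. Means were 7.12 ± 0.153 in knockouts and 7.21 ± 0.227 in wild types (SD, n = 5 each), a difference of −0.092 ± 0.12 (SE). Without the 4 arrays with epidermis and hair markers it was 0.023.

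Perm1, a muscle protein that PGC-1 and the estrogen-related receptors induce, had its highest values in knockouts 4 and 5, the 2 arrays highest in 4 of the 5 Ppargc1a probe sets. Probe set 1429598_at read 7.82, 8.30, 8.31, 8.83 and 8.92 in knockouts 1 to 5, against 8.50, 8.22, 8.51, 8.37 and 7.72 in wild types 1 to 5. The groups overlapped over most of their range, and the lowest arrays were wild type 5 and knockout 1. Means were 8.43 ± 0.447 in knockouts and 8.26 ± 0.327 in wild types (SD, n = 5 each), and the difference of 0.17 ± 0.24 (SE) was smaller than either SD. It was 0.41 without the 4 arrays with epidermis and hair markers and 0.035 without wild type 5. The other Perm1 probe set, 1444727_at, stood at 6.08 in both genotypes and was not a varying one.

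Among the estrogen-related receptors, orphan nuclear receptors that carry PGC-1 to its target genes, Esrrg alone had a varying probe set. Probe set 1455267_at read 7.83, 7.52, 7.41, 7.66 and 7.80 in knockouts 1 to 5, against 7.90, 7.72, 7.68, 7.64 and 7.14 in wild types 1 to 5. Wild types thus held both the highest and the lowest value. Means were 7.65 ± 0.180 in knockouts and 7.62 ± 0.282 in wild types (SD, n = 5 each), with a difference of 0.028 ± 0.15 (SE). Leaving out wild type 5 turned it to −0.090. The 2 probe sets of Esrra, the receptor most closely tied to PGC-1 in oxidative metabolism, stood at 8.01 and 6.27 in both genotypes. The 3 of Esrrb lay between 6.10 and 6.89, and the other 2 of Esrrg at 6.09 and 5.78.

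The nuclear factors downstream of PGC-1 and the mitochondrial DNA factor were flat on the deposited scale. The brighter probe set of Gabpa, the DNA-binding subunit of nuclear respiratory factor 2, was at 8.42 in both genotypes. That of Tfam, which packages mitochondrial DNA and takes part in its transcription, was at 8.50. Nrf1, the other nuclear respiratory factor, had 4 probe sets between 6.17 and 6.70. For the whole group of 19 flat member probe sets the largest difference between genotypes was 0.00045 in size, 10 were higher and 9 lower in knockouts, and none separated the genotypes. Since their spread was compressed to this scale in the deposited table, these values do not show whether the RNA differed.

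Nrip1, the corepressor also known as RIP140, was higher in all 5 knockouts than in any wild type in 1 of its probe sets. Probe set 1418469_at read 8.18, 8.66, 8.26, 8.44 and 8.09 in knockouts 1 to 5, against 7.58, 7.96, 7.75, 8.06 and 7.89 in wild types 1 to 5. The gap between the lowest knockout and the highest wild type was narrow, at 8.09 against 8.06. Means were 8.33 ± 0.225 in knockouts and 7.85 ± 0.186 in wild types (SD, n = 5 each), a difference of 0.48 ± 0.13 (SE) or 1.39 times the wild-type level. The difference kept its sign when any 1 array was left out (0.39 to 0.54). Without the 4 arrays with epidermis and hair markers it was 0.37, and without the 5 arrays with either marker set 0.49. No overlap between genotypes was seen in 3.96% of the 6209 varying probe sets of the array (3.37% higher in knockouts) and in 1.6% of all probe sets, and in 1 of the 11 varying member probe sets.

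The other 2 varying probe sets of Nrip1 showed far smaller differences. The brightest, 1434384_at, read 8.85, 9.24, 9.00, 9.14 and 8.97 in knockouts 1 to 5, against 8.60, 9.11, 8.88, 9.03 and 8.98 in wild types 1 to 5, a difference of 0.12 ± 0.11 (SE). Probe set 1449089_at differed by 0.12 ± 0.12 (SE), and by −0.024 without the 4 arrays with epidermis and hair markers. In both, the genotypes overlapped. The 3 probe sets still moved together from array to array, with correlations from 0.75 to 0.90, and wild type 1 was the lowest array in all of them. That array was also the highest in Ppargc1b and Esrrg and was 1 of the 4 with epidermis and hair markers; the part of those markers in these values was not tested.

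**Figure D3:**
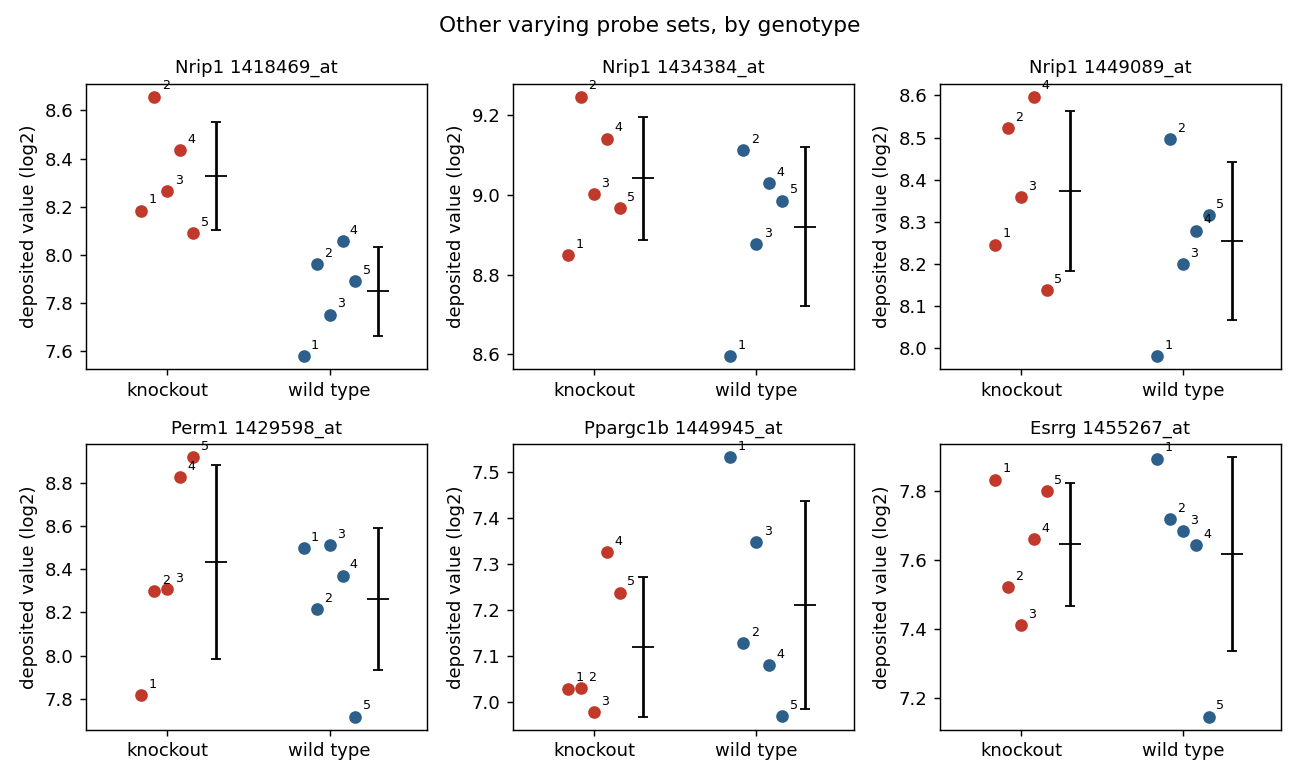
Deposited values (log2) of the 6 varying probe sets of Nrip1, Perm1, Ppargc1b and Esrrg are shown by genotype, knockouts on the left and wild types on the right, with the replicate number beside each point and the mean ± SD (n = 5) to the right of the points. The groups are apart for Nrip1 1418469_at alone, at 8.09 or more in knockouts and at 8.06 or less in wild types.

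Over all 11 varying member probe sets, 10 were higher and 1 was lower in knockouts, with a median difference of 0.48. Of all 6209 varying probe sets on the array 49.2% were higher, with a median of −0.0021. This count leans on Ppargc1a and Nrip1, which hold 8 of the 11. None of the 30 reached an adjusted p of 0.05 in the limma fit over all 45037 probe sets, which 0.191% did (0.155% higher, 0.0355% lower). An unadjusted p under 0.05 was seen for 6 of the 30, and for 6.62% of all probe sets. These 6 were 4 probe sets of Ppargc1a, 1418469_at of Nrip1 and a flat probe set of Nrip1. Since the members were listed with this contrast known, nothing is read from these counts.

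**Figure D4:**
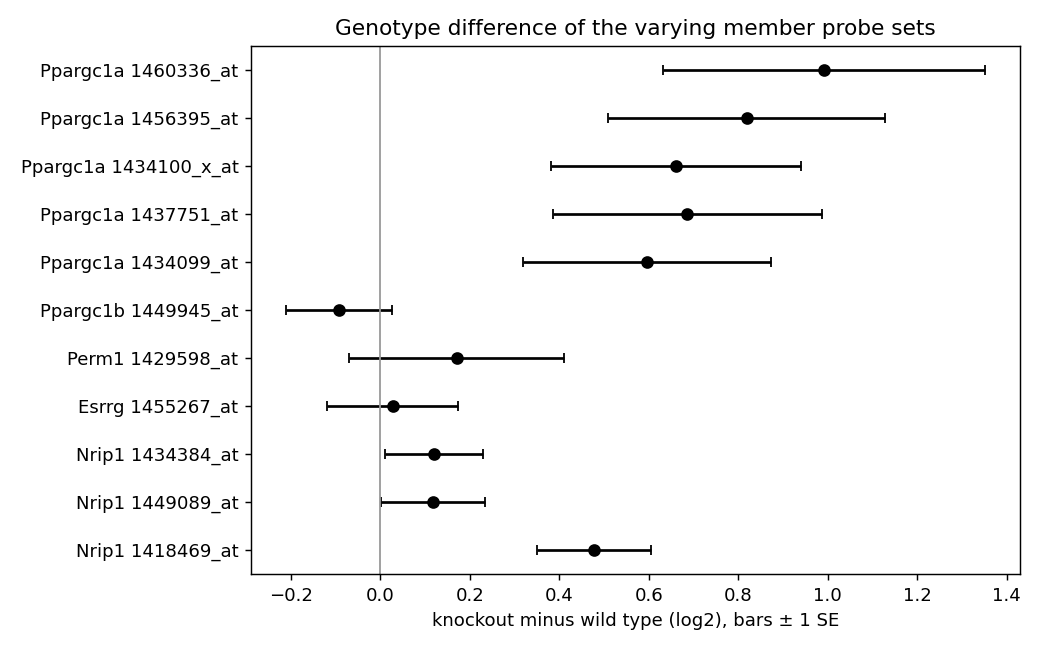
The difference knockout minus wild type (log2) is drawn for each of the 11 varying member probe sets with bars of ± 1 SE from the limma fit. The 5 Ppargc1a probe sets lie between 0.60 and 0.99, Nrip1 1418469_at at 0.48, and the other 5 between −0.092 and 0.17.

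The next question was which members went with Ppargc1a from array to array, and Perm1 came closest. Since the list was chosen by these Ppargc1a values, the p-values below describe these arrays and are no independent test. Over the 10 arrays the correlation of Perm1 1429598_at with Ppargc1a 1460336_at was r = 0.73 (two-sided permutation p = 0.0183, adjusted p = 0.0366 over the 10 partner probe sets) and rho = 0.72 (permutation p = 0.0231, adjusted p = 0.0462). Those 10 include the 4 other Ppargc1a probe sets, whose high correlation was certain in advance and lowers the adjusted p of Perm1. An adjustment over the other members alone would be stricter and was not made. Nothing is therefore read from Perm1 passing, here or within genotypes. Without knockouts 4 and 5, the 2 arrays farthest from the Ppargc1a median, r was 0.43 (exact permutation p = 0.277, adjusted p = 0.462). This left 8 arrays and a narrower range of Ppargc1a, so it does not show whether the relation was absent among them. After each genotype's mean was subtracted, r was 0.80 (exact permutation within genotypes, p = 0.0119, adjusted p = 0.0238). The adjusted p was above 0.05 in 6 of the 10 repeats that left out 1 array (knockouts 1, 2, 4 and 5, wild types 2 and 5; r from 0.68 to 0.79 over all 10), and with another Ppargc1a probe set (r = 0.65). Without the 4 arrays with epidermis and hair markers r was 0.82 (exact permutation, adjusted p = 0.0528, 6 arrays), and without the 2 with lymphocyte markers 0.73 (exact permutation, adjusted p = 0.0848, 8 arrays). Of the other varying probe sets of the array, 3.68% had a higher r with Ppargc1a than Perm1 did.

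The remaining members did not pass even with this adjustment. For Nrip1 1418469_at r was 0.59 (permutation p = 0.0760, adjusted p = 0.127) and rho 0.66 (permutation p = 0.0436, adjusted p = 0.0727). Without knockouts 4 and 5 this r was 0.63, but it was 0.096 after the genotype means were subtracted. The other 2 Nrip1 probe sets gave r = 0.41 and 0.42 (permutation p = 0.242 and 0.229, both adjusted p = 0.302), with rho = 0.32 and 0.22 (permutation p = 0.368 and 0.536). For Ppargc1b r was 0.20 (permutation p = 0.587, adjusted p = 0.652) and rho 0.22 (permutation p = 0.537), yet within genotypes r was 0.53 (exact permutation p = 0.0436, adjusted p = 0.0727). Leaving out knockout 4 turned the pooled Ppargc1b value to −0.061. Esrrg, at r = 0.087 (permutation p = 0.802, adjusted p = 0.802) and rho = −0.079 (permutation p = 0.838), showed no relation past the threshold in either direction. All 10 partners, the 4 other Ppargc1a probe sets included, were adjusted together.

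**Figure D5:**
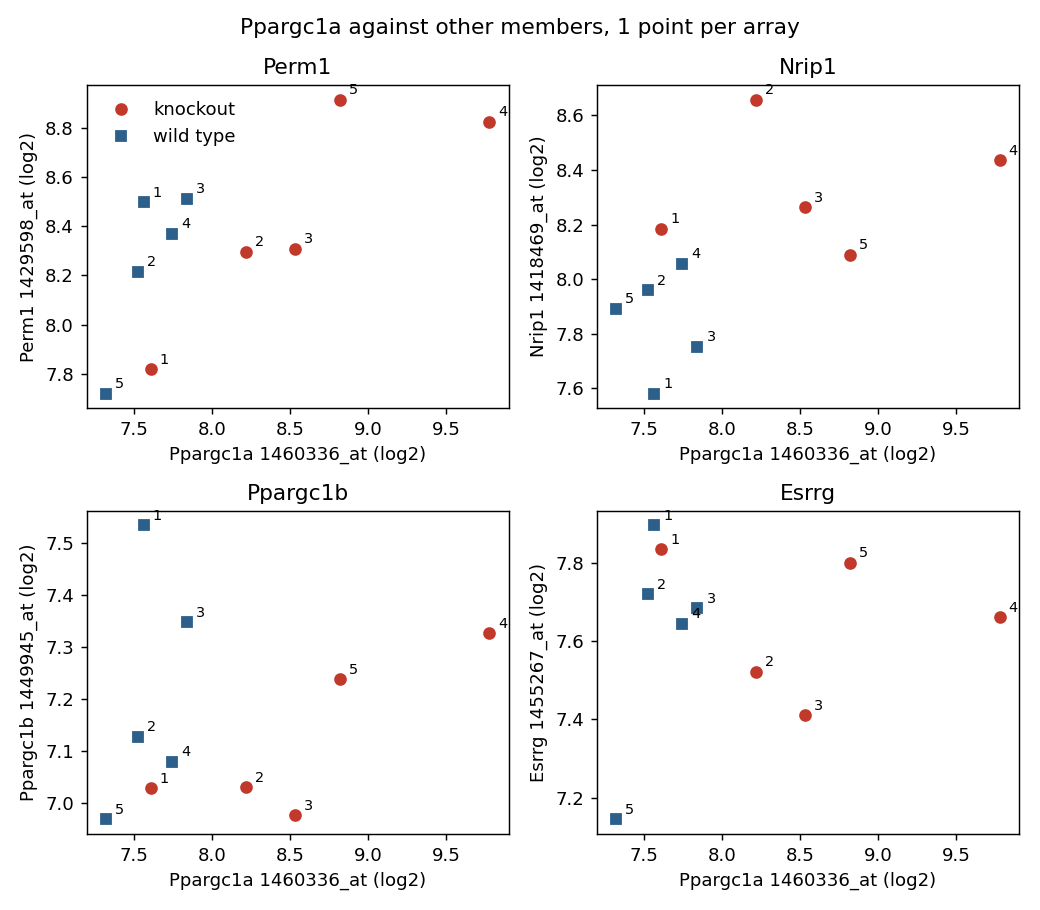
Each point is 1 array, numbered by replicate, with Ppargc1a 1460336_at on the x axis and Perm1, Nrip1 1418469_at, Ppargc1b or Esrrg on the y axis (log2); circles are knockouts and squares wild types. Perm1 is highest in knockouts 4 and 5 and lowest in wild type 5, and the knockout points of Nrip1 all lie above the wild-type points.

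Genes whose pattern was most like Ppargc1a over the 10 arrays were taken from 3755 named genes with a varying probe set. The highest was Kcnc1, a voltage-gated potassium channel (r = 0.94, rho = 0.89), which read lowest in knockout 1, at 6.43, and highest in knockout 4, at 7.50. Its r was 0.97 after the genotype means were subtracted. Next came Zfand6, a zinc finger protein (r = 0.93), the tyrosine phosphatase Ptpn3 (0.92), the actin-associated palladin Palld (0.91), the transcription factor Nfix (0.91) and Smad3, a mediator of TGF-beta signals (0.91). Smad3 was lowest in knockout 1, at 8.19, and highest in knockout 4, at 9.66. All 6 had their highest value in knockout 4. The lowest were the histone H2aw (r = −0.91), Nip7, of ribosome assembly (−0.90), and Rnpc3, of the minor spliceosome (−0.89), each with its lowest value in knockout 4. After the genotype means were subtracted, r was 0.88 for Zfand6, 0.86 for Ptpn3, 0.83 for Palld, 0.82 for Nfix and 0.89 for Smad3. It was −0.83 for H2aw, −0.84 for Nip7 and −0.78 for Rnpc3. Without knockouts 4 and 5, r ran from 0.72 (Smad3) to 0.96 (Palld) for the 6 highest. For the 3 lowest it ran from −0.63 (Nip7) to −0.93 (H2aw). These genes were picked for their correlation, so the values carry no test. Of the 3755 genes, 49 had r above 0.8 and 34 below −0.8.

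Genes that act upstream of PGC-1 had mostly higher values in knockouts, though none passed. All 25 listed genes, among them kinases, phosphatases, histone-modifying enzymes, transcription factors and their coactivators, were measured with 80 probe sets, of which 28, from 13 genes, were varying. With limma, no adjusted p was below 0.05. Of the 28, 25 were higher and 3 lower, with a median difference of 0.20, where 49.2% of all varying probe sets were higher. An unadjusted limma p under 0.05 was seen for 10, all higher. Over all varying probe sets 9.92% were at that p, 7.44% as higher and 2.48% as lower. The 10 came from Mef2c, Ppp3ca, Ppp3cb, Prkaa2 and Prkab2 alone, so a gene could count more than once. The list was chosen with earlier results of these data known, so nothing is read from these counts. By the rule for named genes, Ppp3ca, the catalytic subunit of calcineurin, stood at 9.85 ± 0.104 in knockouts and 9.64 ± 0.0940 in wild types (SD, n = 5 each; difference 0.21, limma adjusted p = 0.448). Mef2c, a muscle transcription factor that calcium signals activate, was at 10.44 ± 0.163 in knockouts and 9.98 ± 0.290 in wild types (difference 0.46, limma adjusted p = 0.526). Prkab2, a regulatory subunit of AMPK, differed by 0.21 (limma adjusted p = 0.617) and the deacetylase Hdac4 by 0.23 (limma adjusted p = 0.801). Prkaa2, a catalytic subunit of AMPK, was named after its values were seen: 2 of its probe sets had no overlap between genotypes and differed by 0.50 and 0.29 (limma adjusted p = 0.0936 and 0.176). Its brightest probe set, 1434766_at, overlapped between genotypes and differed by 0.11 (limma adjusted p = 0.857). Another probe set of Ppp3ca also had no overlap and differed by 0.27 (limma adjusted p = 0.0896). No overlap was seen in 3.96% of all varying probe sets. The count of 10 was 5 without the 4 arrays with epidermis and hair markers, 6 without the 2 with lymphocyte markers and 2 higher with 1 lower without the 5, where fewer arrays were left. With the brightest probe set of each gene it was 3 of 13, and 11 of the 13 were higher.

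Among co-regulators and receptor partners 1 probe set passed, a varying one, where 0.966% of all varying probe sets and 0.191% of all probe sets did. The lists were chosen with earlier results of these data known, so nothing is read from this count. Of 21 listed genes 19 were measured, with 44 probe sets, 13 of them varying. Of the 13, 11 were higher, against 49.2% of all varying probe sets. The 13 came from 9 genes, so a gene could count more than once. Crebbp 1459804_at, for the acetyltransferase CBP, stood at 6.57 ± 0.0545 in knockouts and 5.94 ± 0.0987 in wild types (SD, n = 5 each; difference 0.63 ± 0.05 SE, limma adjusted p = 0.00393). Its wild-type mean was below every array's median (6.23 to 6.24). The brightest probe set of Crebbp, taken by the rule for named genes, differed by 0.16 (limma adjusted p = 0.853). Another, 1436983_at, differed by 0.34 (limma adjusted p = 0.408) and did not overlap between genotypes, like 3.96% of all varying probe sets. The call of 1459804_at was lost with the replicate number as a block, where the difference was again 0.63, and without the 4 arrays with epidermis and hair markers. Ncoa1, a steroid receptor coactivator, differed by 0.060 (limma adjusted p = 0.602), the heme receptor Nr1d1 by 0.20 (0.933) and Lpin1, a phosphatase and PGC-1 partner, by 0.11 (0.975).

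Target genes of PGC-1 and the estrogen-related receptors showed no difference past the threshold. Of 30 listed genes 28 were measured, with 39 varying probe sets from 24 genes. None of all 61 probe sets passed with limma, and 1 flat probe set had an unadjusted p under 0.05, where 6.62% of the whole array did. Of the 39, 26 were higher and 13 lower in knockouts, with a median difference of 0.022. Of all varying probe sets 49.2% were higher, with a median of −0.0021. Nothing is read from these counts, since the list was chosen with earlier results of these data known. Leaving out knockout 4 gave 19 higher, and leaving out the 2 arrays with lymphocyte markers 15 higher. Mfn2, which fuses mitochondria, stood at 10.11 ± 0.0670 in knockouts and 10.02 ± 0.0813 in wild types (difference 0.096, limma adjusted p = 0.804). The mitochondrial superoxide dismutase Sod2 differed by 0.084 (limma adjusted p = 0.915), the import receptor Tomm20 by −0.079 (0.918) and the vessel growth factor Vegfa by 0.23 (0.933). The differences of these 39 probe sets ran from −0.12 to 0.23, and those of the 5 of Ppargc1a from 0.60 to 0.99. Ppargc1a was the gene whose high knockout values chose the members, so the ranges are not a like comparison.

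Mitochondrial DNA maintenance and transcription could be read in few genes. All 19 listed genes were measured with 31 probe sets, but 4 were varying, 2 higher and 2 lower in knockouts. None of the 31 passed with limma, and 2 flat ones had an unadjusted p under 0.05, where 6.62% of all probe sets did. Ssbp1, which binds single-stranded mitochondrial DNA, differed by −0.035 (limma adjusted p = 0.894), the mitochondrial RNA polymerase Polrmt by 0.064 (0.923), and the RNA-binding partners Lrpprc and Slirp by 0.055 (0.981) and −0.072 (0.988). Polrmt, at 8.57 ± 0.0704 in knockouts and 8.50 ± 0.0722 in wild types (SD, n = 5 each), differed by less than its SD. Over arrays, the varying probe sets of the upstream list had a median r of 0.60 with Ppargc1a, those of the target list 0.42, those of the co-regulators 0.32 and those of mitochondrial DNA maintenance 0.089 (2 of 4 positive). All varying probe sets of the array had a median of 0.094. The tissue marker lists had medians from −0.46 (endothelium) to 0.38 (epidermis and hair), with adipocyte at 0.32 and skeletal muscle at 0.28. All these medians are pooled over genotypes, were not taken within genotypes, and are given as a description of these 10 arrays.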

How the data were processed

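The deposited series table holds 1 value per probe set and array. Values run from 4.93 to 13.96 and are taken as log2 from that range. How the authors made these deposited log2 values (log base, software, normalization) is not given in the sources used here. Protocol labels name Trizol with column clean-up and 100 ng of RNA for labelling. The 64 array controls were left out. Of 45037 probe sets, 34945 have 1 gene, 932 several and 9160 none in the platform annotation; 34741 matched a RefSeq gene table (GRCm38.p6) for names. Genotypes were compared with limma 3.58.1 (R 4.3.3; lmFit and eBayes without trend), adjusted by Benjamini-Hochberg over all probe sets. The fit was tested on simulated data. A correlation over 10 arrays was tested with 100000 permutations, and over fewer exactly. Python 3.11.15, numpy 2.4.6 and matplotlib 3.10.9 served for the rest.

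Members and lists were chosen with earlier results of these data known. Named genes were all members, up to 4 per pathway list by smallest unadjusted p (each gene by its brightest varying probe set), and the 6 highest and 3 lowest genes by correlation with Ppargc1a, without clone or predicted names. Alternatives covered scaling, a filter on level, trend, array weights, the replicate block, 1 probe set per gene and arrays left out; those without arrays of other tissue markers were added after seeing the data. The labels name no batch, and precision is limited by the number of arrays.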

Additional observations from a re-analysis of the deposited data

Results flagged for a closer look

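Within groups of 5, an array stood apart from the other 4 by Dixon's test in 5 of 72 groups (36 probe sets named in the text, both genotypes), where chance marks about 1 in 20. Ppargc1a 1434100_x_at was highest in wild type 3, at 7.37, with the next wild type at 6.98. Nr1d1 was highest in wild type 1, at 7.23, with the next at 6.89. Lrpprc was lowest in knockout 1, at 8.13, with the next knockout at 8.37. H2aw was lowest in wild type 3, at 8.01, with the next at 8.27. Nip7 was lowest in wild type 4, at 8.12, with the next at 8.23.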

How the results depend on the processing

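No member probe set passed with limma under any of the 21 alternatives. The Ppargc1a 1460336_at difference stayed positive in all of them, at 0.69 to 1.24. Over all probe sets the count of calls was 86, but 117 of 22518 with the filter on level, 112 with array weights, 62 with centred arrays, 43 after quantile normalization, 5 with the replicate block, 31 to 57 without 1 array and 16 without the arrays with lymphocyte markers. It was 0 without those with epidermis or hair markers and 0 without either (limma, 2912 and 2672 at an unadjusted p under 0.05, on 6 and 5 arrays). With 1 probe set per gene it was 5 for the brightest and 61 for the most variable.

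Of the correlations with other members, 1 passed (Perm1), in an adjustment that the other Ppargc1a probe sets made easier. The count was 0 with another Ppargc1a probe set and 0 without the arrays with epidermis or hair markers (Perm1 r = 0.82). It was also 0 without those with lymphocyte markers (Perm1 r = 0.73) and 0 to 1 without 1 array. In the pathway lists 1 probe set passed (Crebbp), but 0 with the replicate block, 0 with the brightest probe set per gene, 0 without the arrays with epidermis or hair markers, 0 without either and 1 to 2 without 1 array; the second was Prkaa2 without wild type 4. The causes were not tested. Some of these settings leave fewer arrays or probe sets.

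Signs turned for small differences and for several correlations. Without 1 array, the Esrrg difference ran from −0.090 to 0.097, and without either marker set it was −0.037. Without the arrays with epidermis or hair markers, Nrip1 1449089_at differed by −0.024 and Ppargc1b by 0.023, and r of Ppargc1a with Nrip1 1434384_at and 1449089_at was −0.10 and −0.38. Without 1 array, r ran from −0.061 to 0.52 for Ppargc1b and from −0.31 to 0.21 for Esrrg, whose Spearman value was −0.079. With the replicate block, r with Nrip1 turned from 0.41 to −0.70 (1434384_at), from 0.42 to −0.11 (1449089_at) and from 0.59 to −0.72 (1418469_at). The sign was kept for Ppargc1b (0.20 without the block, 0.93 with it) and Esrrg (0.087 and 0.48). No p-value was computed with the block. Whether same-numbered arrays form pairs was not settled. Their deviations correlated at −0.40 to 0.32, and 2 of 5 knockouts correlated best with their own number. Markers of other tissues differed between single arrays, and their part in these correlations was not tested.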
